A study of Oryza sativa with 24 samples.

Results

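The genes described here are the nuclear photosynthesis genes on a list of 33 gene IDs, made up as a whole of light-harvesting proteins, photosystem subunits, the Rubisco small subunit, Rubisco activase and their partners. Members were matched by ID alone, and an ID was a member where it was a row of the deposited tables. The list itself was chosen with earlier results of these data known. Of the 33 IDs, 17 were listed in the embryo tables and 5 in the endosperm tables, out of 17780 genes listed in at least 1 tissue. All 5 endosperm members were among the 17 of the embryo. Neither the tables, the study nor the reference gene table pairs these IDs with names, so the class of each single ID was not assigned and the label could not be checked gene by gene. The IDs carry their chromosome.

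The study sampled seeds of 2 japonica rice accessions grown in a field, Jowoon, which resists pre-harvest sprouting (grains germinating while still on the panicle), and Gopum, which sprouts readily. Both are labelled wild type. Embryo and endosperm were separated at 3 stages of ripening (30, 45 or 60 days from heading), and messenger RNA was sequenced. By the labels there were 24 libraries, 2 for each of 12 groups of accession, tissue and stage. Each library pooled the seeds of several plants according to the methods, which also speak of more replicates than the labels show. The value used here is the authors' mean level of a gene in log2 CPM. CPM are read counts scaled to the total of the library, which the authors scaled further between libraries by the trimmed mean of M-values. Whether the mean was taken before or after the log is not stated. The mean level did not differ between the 3 tables from the embryo, nor between the 3 from the endosperm, which makes it 1 mean over all accessions and stages sampled. It has no error and no n, the depth of the libraries is unknown, and no test could be made with it. By this mean alone, a gene used at a single stage or in a single accession cannot be told apart from a gene used evenly.

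In a green leaf, light-harvesting proteins hold chlorophyll and pass the absorbed energy to the photosystems, which drive electrons from water to carriers such as plastocyanin and ferredoxin. The energy captured is used by Rubisco, the enzyme that fixes carbon dioxide, and its activase keeps it in an active state. Rubisco is built of large subunits encoded in the plastid and small subunits encoded in the nucleus, and the light-harvesting proteins and many photosystem subunits are also nuclear-encoded. A filled cereal grain is fed by sugar from the leaves. Its endosperm stores starch in plastids that are not green and protein in separate storage bodies, and the embryo dries with the grain as it matures.

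The tissue labels were checked with marker lists. All 4 genes of an embryo list (a maturation regulator, an oleosin and dehydration proteins) were listed in both tissues, and each was higher in the embryo, by 0.06 to 3.16 on the log2 scale, but so were 89.1% of all genes listed in both tissues, whose median difference was 1.32. Of the 4, 3 lay below that median, with 0.83, 0.06 and 0.47, and so turned to the endosperm side after centring on it. Of this list, OS05G0349800 alone, with 3.16, stayed on the embryo side. They summed to 6535 CPM in the embryo and 3053 CPM in the endosperm. Of 7 genes of an endosperm list, mostly starch and storage protein genes, 5 were listed in the embryo and 7 in the endosperm. The 5 shared ones differed by -7.60 to -4.71 (embryo minus endosperm), and the listed genes summed to 1130 CPM in the embryo and 207399 CPM in the endosperm. What part RNA carried over between the tissues had in the results below was not tested. No marker of the green outer layers of the grain was examined.

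The first question was how many photosynthesis genes were listed in each tissue. In the embryo, 51.5% of the 33 IDs were rows of the tables, against 15.2% in the endosperm. The endosperm listed fewer genes in general. Of all 17780 genes listed in at least 1 tissue, 16897 were listed in the embryo and 14049 in the endosperm. Of the 17 members listed in at least 1 tissue, 17 were listed in the embryo and 5 in the endosperm. The 16 IDs with no embryo row have no value analysed here. The authors' filter on low genes is not given in the sources used here, so a missing row cannot be read as a level of 0. The lowest mean in the tables was 0.05 log2 CPM in the embryo and 0.27 in the endosperm. By the chromosome in the ID, chromosome 7 held 8 of the IDs, of which 6 were listed in the embryo and 2 in the endosperm. The 4 IDs of chromosome 12 and the 3 of chromosome 8 were listed in neither tissue. Each of these chromosomes held few IDs, and no difference between them was tested.

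The members listed in the embryo took a small share of its reads. Their median was 2.17 log2 CPM, or 4.50 CPM, against 3.87 log2 CPM, or 14.6 CPM, for all 16897 genes of the embryo. Of the 17 members, 15 lay below the median gene, 9 below the lower quartile of all genes (2.43 log2 CPM) and 0 above the upper quartile (5.33 log2 CPM). Together they summed to 142 CPM, of which the 3 highest made up 50.1%. In bulk tissue, fewer cells that use a gene and less of its RNA per cell cannot be told apart. CPM values are not divided by transcript length, and no length could be matched to these IDs, so the order of genes is an order of read shares and not of transcript numbers.

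At the top of the embryo members, OS07G0577600 on chromosome 7 had an authors' mean of 4.97 log2 CPM (31.3 CPM), above 69.2% of embryo genes. It was followed by OS05G0560000 on chromosome 5 with 4.85 log2 CPM (28.9 CPM), above 67.3% of embryo genes. These were the only members above the median embryo gene. There was then a step down to OS02G0197600 with 3.48 log2 CPM (11.1 CPM), OS07G0435300 with 3.46 log2 CPM (11.0 CPM) and OS07G0544800 with 3.27 log2 CPM (9.63 CPM), which lay above 43.0%, 42.6% and 39.5% of embryo genes.

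The next members sat lower, from 2.90 to 2.06 log2 CPM. OS01G0869800 had 2.90 log2 CPM, OS07G0562700 had 2.61 and OS06G0101600 had 2.53, each above the lower quartile of embryo genes. Below that quartile, OS01G0501800 had 2.17 log2 CPM, OS09G0481200 had 2.16, OS03G0592500 had 2.14 and OS11G0242800 had 2.06. These 4 genes, on chromosomes 1, 9, 3 and 11, spanned 18.1% to 20.3% of embryo genes below them. Without an error, their order is a description only.

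The lowest embryo members were OS07G0141400 with 1.94 log2 CPM, OS07G0147500 with 1.53, OS03G0778100 with 1.38, OS04G0414700 with 1.12 and OS09G0346500 with 0.99. The last of these corresponds to 1.99 CPM and lay above 1.65% of embryo genes. The distance between the highest and the lowest member of the embryo was thus 31.3 against 1.99 CPM. Chromosome 7 held both the highest member and 2 of the 5 lowest.

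**Figure D1:**
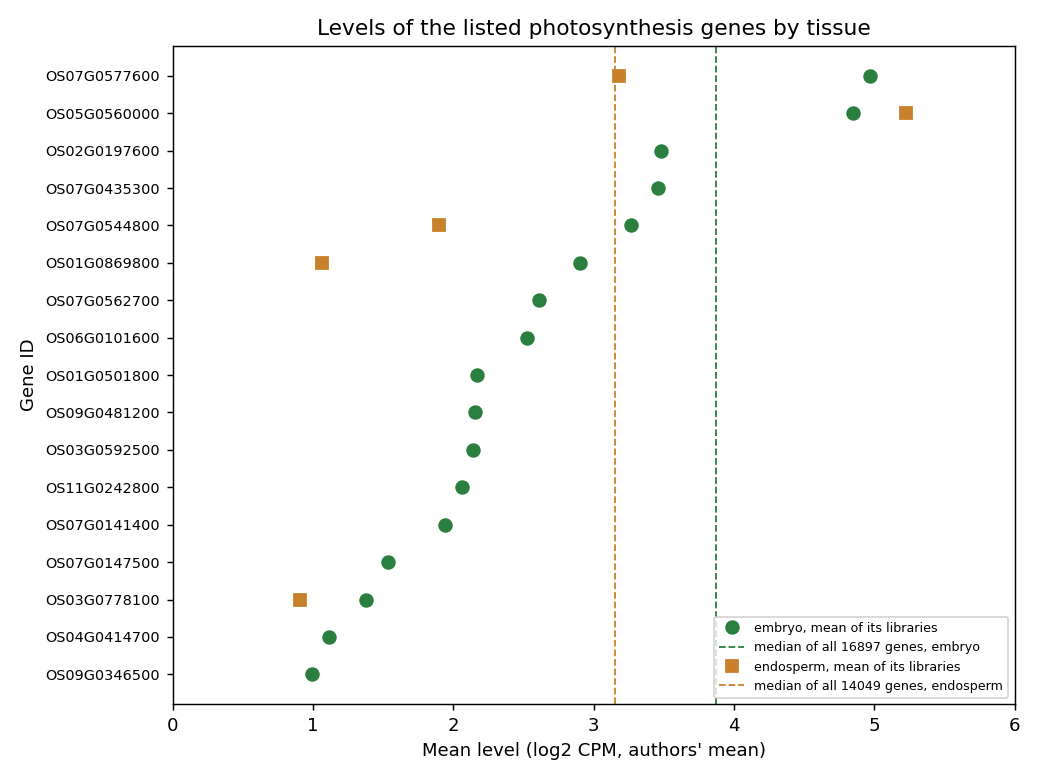
Mean level of the 17 listed photosynthesis genes on the x axis (log2 CPM, the authors' mean over the libraries of a tissue), 1 gene ID per line, with circles for the embryo, squares for the endosperm and a dashed line for the median of all genes of each tissue. In the embryo 2 of 17 genes lie right of the embryo median of 3.87, and 12 genes have no square because they were not listed in the endosperm.

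In the endosperm, 5 members were listed, with a median of 1.90 log2 CPM, or 3.72 CPM, against 3.15 log2 CPM, or 8.87 CPM, for all 14049 genes of the endosperm. OS05G0560000 stood first, with 5.22 log2 CPM (37.4 CPM), above 85.2% of endosperm genes. It was the only member above the upper quartile of its tissue (4.45 log2 CPM). OS07G0577600 followed with 3.18 log2 CPM (9.07 CPM), above 50.7% of endosperm genes and so close to the median gene. The remaining members were low. OS07G0544800 had 1.90 log2 CPM, OS01G0869800 had 1.07 and OS03G0778100 had 0.91, above 22.4%, 3.77% and 1.81% of endosperm genes. The 5 genes summed to 54.1 CPM, and 92.7% of this came from the 3 highest. The order of the first pair was reversed between the tissues, since OS07G0577600 led in the embryo and OS05G0560000 in the endosperm.

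The second question was which embryo members were also listed in the endosperm. This held for 29.4% of the members, 5 of 17, against 77.9% of all embryo genes, 13166 of 16897. Low genes of the embryo were less often listed in the endosperm in general. Among all embryo genes of 4 to 5 log2 CPM, 97.7% were also in the endosperm tables, as were both members of that level. Between 3 and 4 log2 CPM, it was 89.7% of all genes and 1 of 3 members. Between 2 and 3 log2 CPM, it was 58.8% of all genes and 1 of 7 members. Between 1 and 2 log2 CPM, it was 28.1% of all genes and 1 of 4 members. The single member below 1 log2 CPM was not listed, where 17.0% of all genes were. The 12 members without an endosperm row ranged from 0.99 to 3.48 log2 CPM in the embryo, with a median of 2.15, against a median of 3.27 for the 5 with a row. The members without an endosperm row thus had the lower median in the embryo. Between 2 and 4 log2 CPM, members were also listed less often than all genes of the same range. With so few members in each range, no difference from other genes was tested.

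**Figure D2:**
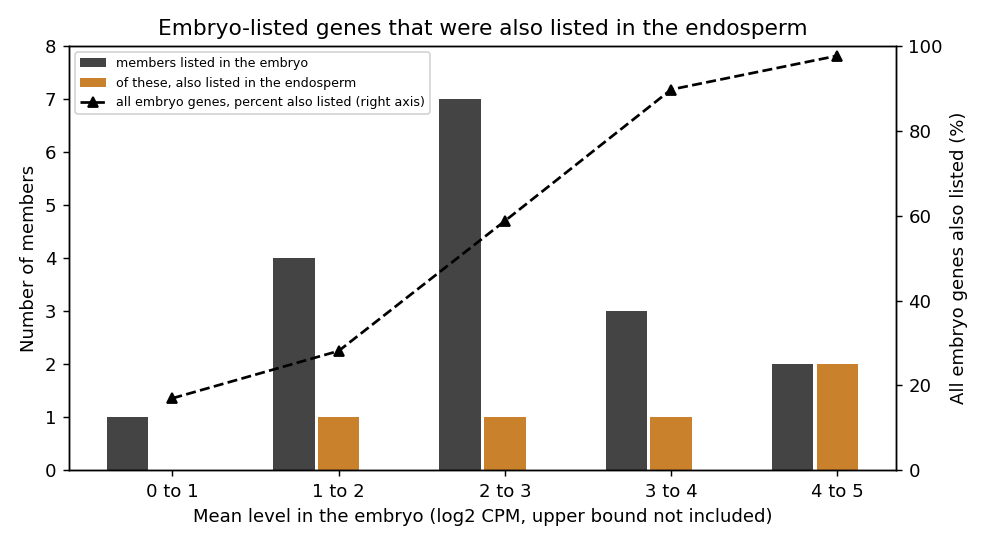
Number of members listed in the embryo (dark bars) and of those also listed in the endosperm (orange bars, left axis) by mean level in the embryo in log2 CPM, with the percentage of all embryo genes also listed in the endosperm as triangles (right axis). Between 2 and 3 log2 CPM 1 of 7 members was also listed, where 58.8% of all genes were.

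The third question was how the 5 members listed in both tissues differed between embryo and endosperm. Each tissue had its own list of genes and its own means. The tissues were therefore taken to have been scaled separately, which the study does not state. For this reason a difference of the means was read beside that of all 13166 shared genes. Of these, 89.1% were higher in the embryo, with a median difference of 1.32 on the log2 scale and quartiles of 0.75 and 1.79. The 10 highest genes took 11.1% of the summed CPM in the embryo and 43.5% in the endosperm, which leaves a smaller share of the total for other endosperm genes. A positive difference smaller than 1.32 is therefore less than that of the median gene.

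OS01G0869800 had 2.90 log2 CPM in the embryo and 1.07 in the endosperm, a difference of 1.83, which exceeded that of 77.3% of shared genes. OS07G0577600 had 4.97 log2 CPM in the embryo and 3.18 in the endosperm, a difference of 1.79, which fell at the upper quartile of shared genes. OS07G0544800 had 3.27 log2 CPM in the embryo and 1.90 in the endosperm, a difference of 1.37. These 3 members were thus 3.57-fold, 3.45-fold and 2.59-fold higher in the embryo in CPM, where the median gene was 2.50-fold higher. With the 10 highest genes of each tissue left out of the CPM total, the differences were smaller, at 1.18 for OS01G0869800, 1.13 for OS07G0577600 and 0.72 for OS07G0544800, and the median of all shared genes was 0.67. Relative to the median of all shared genes as deposited they were 0.51, 0.46 and 0.050.

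OS03G0778100 had 1.38 log2 CPM in the embryo and 0.91 in the endosperm, a difference of 0.47. Relative to the median of all shared genes it was -0.85, and with the 10 highest genes of each tissue left out of the CPM total it was -0.19, so its direction depended on the scaling. Both of its levels were near the lowest listed in the tables.

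OS05G0560000 had 4.85 log2 CPM in the embryo and 5.22 in the endosperm, a difference of -0.37. As deposited, it was the only shared member with a higher mean in the endosperm, by 1.30-fold in CPM. With the 10 highest genes left out of the CPM total its difference was -1.03. Relative to the median of all shared genes it was -1.69, and 7.51% of shared genes had a smaller difference. Each of these scalings lowers the difference of every shared member by a common amount, so its negative sign could not have turned. Under both of these scalings OS03G0778100 was on the endosperm side as well. No error can be attached to this difference. The pooled means hold no accession or stage, and whether it came from few or all of the libraries could not be examined.

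**Figure D3:**
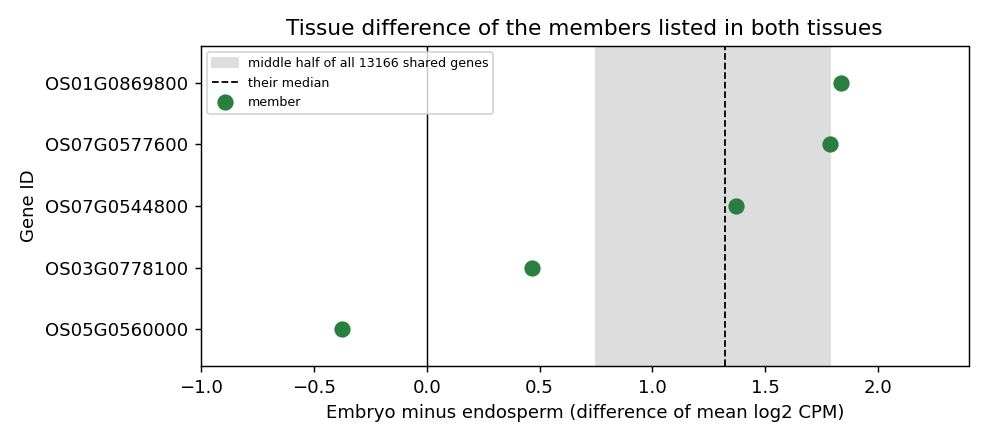
Difference of the authors' mean log2 CPM, embryo minus endosperm, for the 5 members listed in both tissues (points), with the median (dashed line) and interquartile range (grey band) of all 13166 shared genes and a line at 0. OS05G0560000 lies at -0.37, left of 0 and of the grey band, whereas 3 members lie right of the median of 1.32.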

How the data were processed

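Per the labels and the study's methods, the authors trimmed reads with Trimmomatic, aligned them to the IRGSP rice genome with HISAT2, counted them per gene with featureCounts, scaled them by the trimmed mean of M-values and compared the accessions with edgeR. The authors deposited 6 tables, 1 per tissue and stage. Their columns are the log2 CPM of a gene and, for the accessions, the log2 fold change with its p-value and false discovery rate. Only the deposited log2 CPM was used. The fold change, p-value and false discovery rate columns are the authors' own comparison of the accessions and were neither used nor printed, so no accession or stage comparison is given.

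Members were matched by gene ID with Python 3.11.15 and pandas 2.3.3. Medians, percentages of genes below a member, and embryo minus endosperm differences were computed without a test. Only the functions for the percentage of genes below a member and for leaving out the highest genes were tested on simulated data. The members and marker lists were chosen with earlier results of these data known. All listed members are named, and no gene was named for a difference between accessions. The ranges of embryo level in which the listing of genes was counted were chosen after seeing the data. Of the 33 IDs, 0 matched the reference gene table, so names, lengths, promoter motifs, sequences and the planned list of other pathway genes were not used here.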

Additional observations from a re-analysis of the deposited data

How the results depend on the processing

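No paired analysis was possible because the tables hold 1 pooled mean per tissue and no library values, and for the same reason no library could be left out. Of the median embryo minus endosperm difference of 1.37, centring on all shared genes left 0.050, and leaving the 10 highest genes of each tissue out of the CPM total left 0.72. For OS03G0778100 both turned the sign, to -0.85 and -0.19. Both settings lower the difference of every shared member by a common amount. OS01G0869800, OS07G0577600 and OS07G0544800 stayed on the embryo side in each alternative run, as their differences exceeded those amounts. OS05G0560000 was already on the endosperm side, and no alternative run could turn its sign. Centring and the omission each reduced the members higher in the embryo to 3 of 5. They lowered the differences of the other shared genes too, and the median of all shared genes was 0.67 under the omission. The share of all shared genes higher in the embryo was not recounted under these settings. Leaving out the 10 highest genes also raised the endosperm median of the members to 2.72. This was a shift of 0.82 common to all remaining endosperm genes, so the count of 2 members above the median gene could hardly change. With the members listed in both tissues only, the embryo median was 3.27. Limiting all genes to at least 3 log2 CPM left 1 member above the median gene in the embryo and 1 in the endosperm, where the threshold itself removed low genes. With shared genes only as background, 1 endosperm member was above the median gene. Levels per kilobase of coding sequence were not run, since no coding length could be matched. The unknown depth and gene filter limit what a missing row or a mean near the lowest listed level can show.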
